A study of Homo sapiens with 3 samples.

Results

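CALM2 and CALM3 are human genes that encode the same protein, calmodulin, and they were followed here in HEK293T cells, an easily transfected embryonic kidney cell line. They were taken as the rows of the deposited gene table, and of the isoform table, that carry these 2 names, 2 of 23284 genes. Each gene has 1 isoform, so both tables hold the same values for them. The pair was chosen by its FPKM in these 3 libraries, so these values and the ratios from them are descriptions.

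The siRNA given by reverse transfection targeted ESRP2, a splicing regulator of epithelial cells, or Arkadia, the ubiquitin ligase encoded by RNF111, or was a negative control. Cells were harvested 48 h after seeding with no TGF-beta added. All groups, the control included, were transfected. There was 1 library of polyadenylated RNA per group and no replicate, so each difference is between 2 libraries and carries no test, and any spread between cultures is unknown. Levels are FPKM, fragments per transcript length and library size, each with the authors' confidence interval.

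Calmodulin is a small calcium sensor of the EF-hand family, in which paired helix-loop-helix motifs hold calcium ions. When calcium rises it wraps around short helices of its partners and so switches kinases, the phosphatase calcineurin, calcium pumps, cyclases and myosins on or off. Vertebrates keep several separate genes for this 1 protein, which leaves regulation, and not protein sequence, as what can differ between them.

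CALM2 (isoform NM_001743, 1302 nt) lies on chromosome 2 from 47387221 to 47403740 and CALM3 (isoform NM_005184, 2259 nt) on chromosome 19 from 47104512 to 47114039, both on hg19. In GENCODE 29, on GRCh38, the transcript of CALM2 runs on the minus strand over chr2:47160082-47176601 and that of CALM3 on the plus strand over chr19:46601236-46610793. Their coding sequences are shown because they encode the identical 149 residues with different bases. Reads of the genes can differ there, and also in the untranslated regions, which are not shown. The first 300 bases from the start codon are printed, with the 53 bases that differ between the genes there in capitals.
CALM2: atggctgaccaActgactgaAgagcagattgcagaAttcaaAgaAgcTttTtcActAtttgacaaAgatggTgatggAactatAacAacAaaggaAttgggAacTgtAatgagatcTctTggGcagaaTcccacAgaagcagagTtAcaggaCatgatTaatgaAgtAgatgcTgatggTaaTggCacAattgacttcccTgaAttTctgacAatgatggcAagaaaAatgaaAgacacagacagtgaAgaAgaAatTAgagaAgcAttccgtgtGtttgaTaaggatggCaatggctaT
CALM3: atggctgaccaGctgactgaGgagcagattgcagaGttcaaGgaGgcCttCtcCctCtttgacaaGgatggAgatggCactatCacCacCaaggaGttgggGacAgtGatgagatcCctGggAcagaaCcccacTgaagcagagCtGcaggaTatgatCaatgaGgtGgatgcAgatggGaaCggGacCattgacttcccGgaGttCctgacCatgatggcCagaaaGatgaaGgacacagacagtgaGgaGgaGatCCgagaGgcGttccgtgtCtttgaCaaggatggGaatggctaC

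The 450 coding bases were identical at 81.8% of positions and differed at 82. Of these differences, 79 fell at the third codon position, 3 at the first and 0 at the second, and 80 of 150 codons differed. At 67 of the 82 positions CALM2 had A or T where CALM3 had G or C, and the reverse held at 5. At the third codon position, G or C stood in 30% of CALM2 codons and 69.3% of CALM3 codons, against a median of 58.7% over 11349 coding genes compared here. The exon structure was shared, with coding parts of 3, 31, 144, 107, 136 and 26 nt (the stop codon aside) in the 6 exons of each gene.

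The untranslated regions differed in length and composition. The 5′ untranslated region was 158 nt with a GC content of 61.4% in CALM2 and 199 nt with 80.4% in CALM3, and the 3′ untranslated region 694 nt with 33.6% in CALM2 and 1640 nt with 55.9% in CALM3. Over the whole transcript the GC content was 38.9% for CALM2 and 57.4% for CALM3. The longest stretch that both transcripts shared was 17 nt. The read length is not given in the sources used here. GENCODE 29 names 4 processed pseudogenes after CALM2 and 0 after CALM3, and 0 of these 4 have a row in the gene table, so how many CALM2 reads were placed on them was not tested.

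As a check of the labels, RNF111 had an FPKM of 1.15 with Arkadia siRNA, against 6.38 with control siRNA, and ESRP2 had 4.27 with ESRP2 siRNA, against 14.8 with control siRNA. The intervals of RNF111 did not overlap and those of ESRP2 did. Of the embryonic kidney genes PAX2, SIX2, WT1, LHX1 and EYA1, 3 had an FPKM of 1 or more in every library. Of 11 markers of other cell types 7 were under 1 in every library, and the other 4 were the neurofilaments NEFL and NEFM, the synaptic SYP and the collagen COL1A1. SYP was 6.51 with ESRP2 siRNA and 10.3 with Arkadia siRNA, against 31.2 with control siRNA, and its part in the values below was not tested. Depth was estimated from the FPKM of low genes and the steps between their interval bounds. It was about 12.2 M reads with ESRP2 siRNA, 9.03 M with Arkadia siRNA and 11.9 M with control siRNA.

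CALM2 was the member that differed most between the libraries. It had an FPKM of 491 with ESRP2 siRNA (authors' interval 255 to 725) and 117 with Arkadia siRNA (58.4 to 174), against 242 with control siRNA (123 to 360). The order of its levels was thus ESRP2 siRNA, control siRNA, Arkadia siRNA, and neighbouring intervals in this order overlapped. These levels correspond to about 7793, 1370 and 3731 reads in the order ESRP2, Arkadia and control siRNA, and each interval spanned 47.8% to 49.7% of the value to either side.

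CALM3 was highest in the control library. It had an FPKM of 199 with ESRP2 siRNA (106 to 292) and 151 with Arkadia siRNA (80.4 to 221), against 280 with control siRNA (151 to 408). All 3 intervals overlapped. The values rest on about 5481, 3083 and 7491 reads in the same order of libraries.

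**Figure D1:**
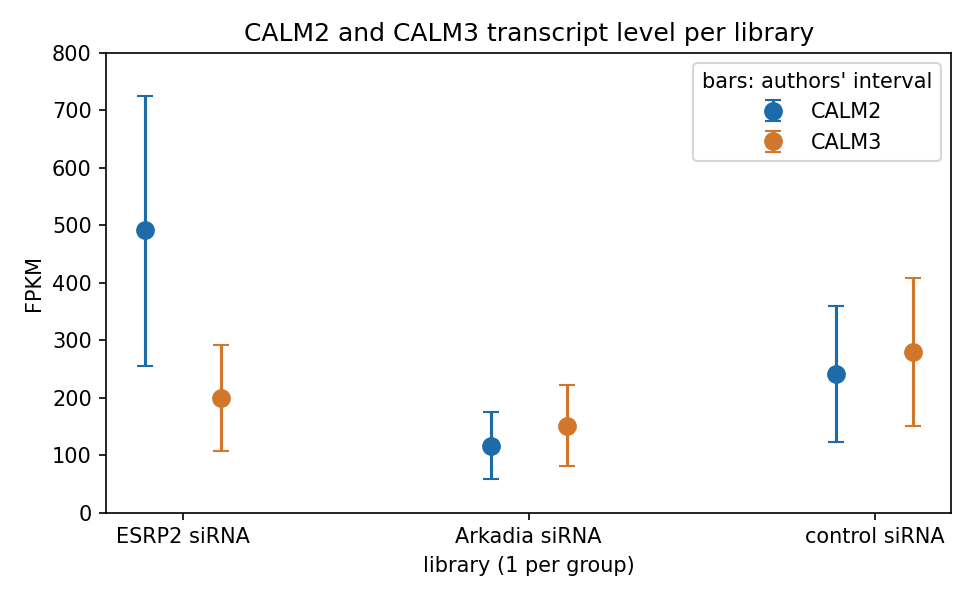
FPKM of CALM2 (blue) and CALM3 (orange) in the 3 libraries, with the authors' confidence interval as bars and 1 library per group. CALM2 spans 117 with Arkadia siRNA to 491 with ESRP2 siRNA, while CALM3 stays between 151 and 280.

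Both genes were among the abundant transcripts of these cells. Among the 11870 genes compared (mean FPKM of at least 1, longest isoform of at least 300 nt), CALM2 ranked 176 with ESRP2 siRNA and 793 with Arkadia siRNA, against 315 with control siRNA. CALM3 ranked 467 with ESRP2 siRNA and 593 with Arkadia siRNA, against 267 with control siRNA.

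Rises and falls are named here where log2((FPKM + 1)/(FPKM + 1)) passed 2-fold, or 1.5-fold where that size is given. Against control siRNA, CALM2 rose 2.03-fold with ESRP2 siRNA, a log2 ratio of 1.02, and the intervals overlapped. It was the 1 member of 2 past 2-fold upward, where 5.45% of all genes passed upward, and 2.42% downward. This 2-fold call was lost after scaling by the median of ratios (0.89), to the upper quartile (0.85) or to the sum without ribosomal protein genes (0.83), and after length subtraction (0.99). Over all genes, scaling by the median of ratios gave 418 rises and 448 falls in place of 647 and 287, and the upper quartile 362 and 522. CALM3 had a log2 ratio of -0.49 in this comparison and passed neither size. Over all genes the median was 0.12, and 15.2% of genes had a lower ratio than CALM3.

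With Arkadia siRNA both genes were lower than with control siRNA. CALM2 fell 2.07-fold with a log2 ratio of -1.05, and 2.24% of all genes passed 2-fold downward and 1.68% upward. CALM3 was 1.85-fold lower with a log2 ratio of -0.88, past 1.5-fold, which 11.8% of all genes passed downward. The intervals of both overlapped with those of control siRNA. Of all 11870 genes 1.90% had a lower ratio than CALM2 and 3.64% a lower ratio than CALM3, and the median over all genes was -0.02. Both comparisons share the 1 control library.

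Between the knockdowns, which share no library, CALM2 was 4.22-fold lower with Arkadia siRNA than with ESRP2 siRNA. Its log2 ratio was -2.07 and its intervals, 58.4 to 174 and 255 to 725, did not overlap. Downward changes of at least 2-fold were frequent in this comparison, at 15.5% of all genes, or 4.45% where intervals did not overlap, and upward ones made up 8.9%. This balance turned with scaling, from which 1444 rises and 1370 falls came by the median of ratios and 1461 and 1354 by the upper quartile, in place of 1056 and 1837. CALM2 stayed past 2-fold downward under both, at -1.91 and -1.90, but not after GC subtraction, at -0.98. CALM3 had a log2 ratio of -0.40 with overlapping intervals and passed neither size.

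The split between the genes therefore differed by library. CALM2 made up 71.2% of the summed FPKM of both genes with ESRP2 siRNA and 43.5% with Arkadia siRNA, against 46.4% with control siRNA, and CALM3 the remaining 28.8%, 56.5% and 53.6%. CALM2 was the more abundant of the pair only with ESRP2 siRNA, 2.47-fold above CALM3, while CALM3 was 1.297-fold above CALM2 with Arkadia siRNA and 1.16-fold above it with control siRNA. If each gene is set to opposite ends of its interval, the CALM2 share ranges over 46.7% to 87.2% with ESRP2 siRNA and 20.9% to 68.4% with Arkadia siRNA, against 23.2% to 70.5% with control siRNA, so these ranges overlapped. These are shares of this pair of genes and not of all calmodulin RNA. As a share of reads, which counts the longer CALM3 transcript more, CALM2 was 58.7% with ESRP2 siRNA and 30.8% with Arkadia siRNA, against 33.3% with control siRNA.

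The summed FPKM of the pair was 691 with ESRP2 siRNA and 268 with Arkadia siRNA, against 521 with control siRNA. It was thus 1.32-fold higher with ESRP2 siRNA than with control siRNA, with the higher CALM2 partly offset by the lower CALM3. With Arkadia siRNA, where both genes were lower, the sum was 1.95-fold below control siRNA. Fewer cells that express a gene and less of its RNA per cell cannot be told apart in such bulk libraries.

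**Figure D2:**
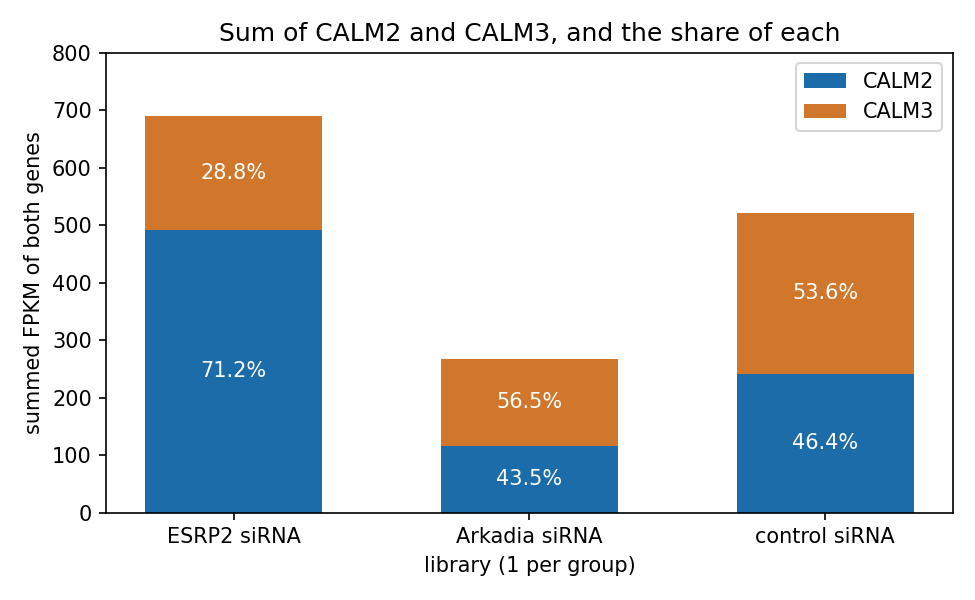
Stacked bars give the FPKM of CALM2 (blue) and CALM3 (orange) in each library, with the percentage of their sum written in each block. The share of CALM2 is 71.2% with ESRP2 siRNA and 43.5% with Arkadia siRNA, against 46.4% with control siRNA, and the sum is lowest with Arkadia siRNA at 268.

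The base composition that sets the genes apart moved with the log2 ratio across all genes. With ESRP2 siRNA against control siRNA, genes had a median of 0.60 in the lowest decile of transcript GC content, which holds CALM2, and -0.23 in the eighth decile, which holds CALM3. With Arkadia siRNA against control siRNA these medians were -0.47 in the decile of CALM2 and 0.25 in that of CALM3. The value of CALM2 had the sign of its decile in both comparisons, and that of CALM3 had it with ESRP2 siRNA but not with Arkadia siRNA.

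After the decile medians were subtracted, CALM2 stood at a log2 ratio of 0.42 with ESRP2 siRNA and -0.58 with Arkadia siRNA against control siRNA, so that it no longer passed 1.5-fold in either. CALM3 stood at -0.26 and -1.13, the second past 2-fold. The difference between CALM2 and CALM3 in log2 ratio was 1.51 with ESRP2 siRNA before subtraction and 0.68 after it. With Arkadia siRNA against control siRNA it was -0.16 before and 0.55 after, so there it widened and changed sign. Between Arkadia and ESRP2 siRNA it was -1.67 before and -0.11 after, when CALM2 stood at -0.98 and CALM3 at -0.87. Subtracting the medians of transcript length deciles left the difference at 1.56 with ESRP2 siRNA and at -1.68 between the knockdowns. What produced the trend with GC content was not tested.

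**Figure D3:**
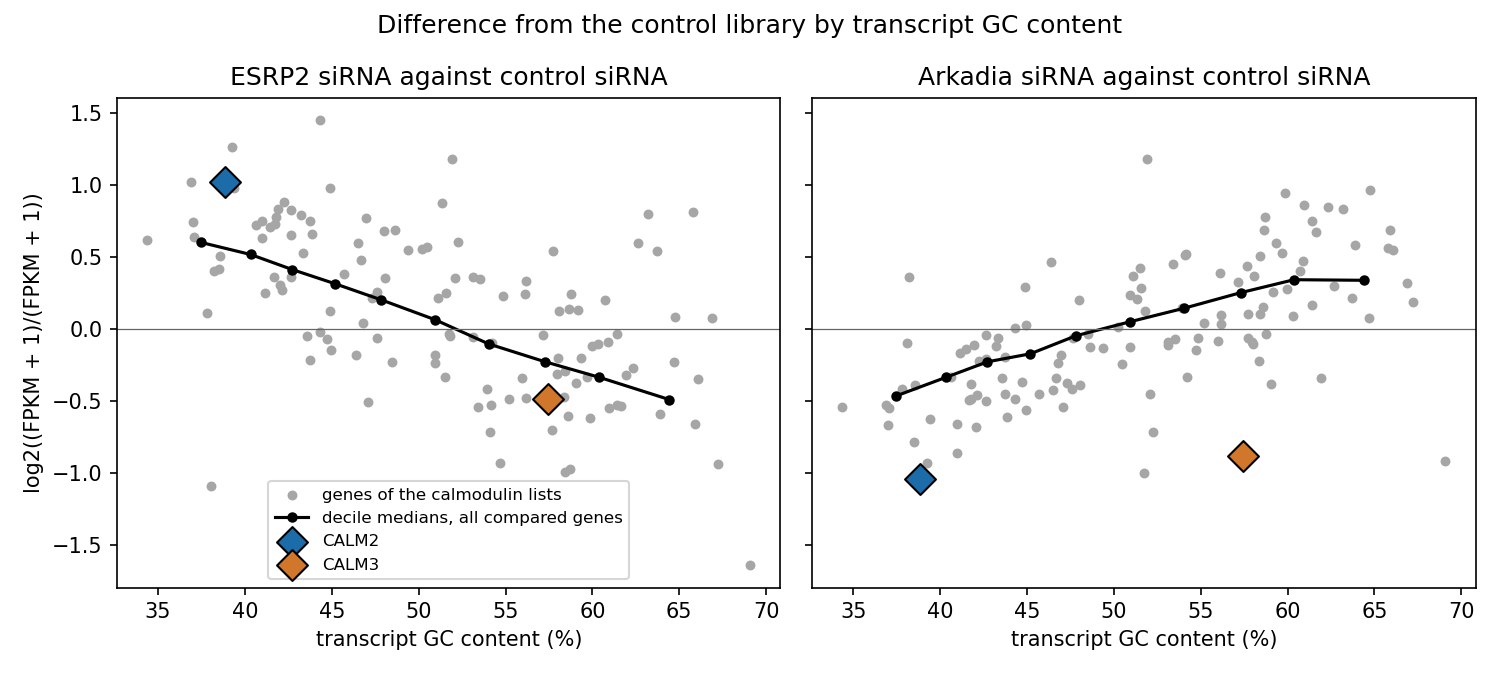
The log2 ratio against control siRNA over the transcript GC content in percent, for ESRP2 siRNA (left) and Arkadia siRNA (right), with CALM2 and CALM3 as diamonds, genes of the calmodulin lists in grey and decile medians of all compared genes in black. CALM2 lies in the lowest GC decile, where the medians are 0.60 and -0.47, and CALM3 in the eighth, where they are -0.23 and 0.25.

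Another pair of genes that share a protein product was examined in the same way. H3F3A and H3F3B encode the histone variant H3.3 from coding sequences that were 78.6% identical. H3F3B had an FPKM of 166 with ESRP2 siRNA and 102 with Arkadia siRNA, against 111 with control siRNA, and H3F3A had 7.60 and 5.24, against 7.88. H3F3B therefore made up 95.6%, 95.1% and 93.4% of the pair, and H3F3A the remaining 4.37%, 4.87% and 6.65%. Because H3F3B dominates this pair, differences in percentage points cannot be compared with those of the calmodulin split. The transcripts had similar GC contents of 43.8% for H3F3A and 43.1% for H3F3B. The log2 ratios with ESRP2 siRNA were 1.51 apart between CALM2 and CALM3 and 0.63 apart between the H3.3 genes. With Arkadia siRNA they were 0.16 apart between CALM2 and CALM3 and 0.40 apart between the H3.3 genes. The difference between the pairs was not tested.

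**Figure D4:**
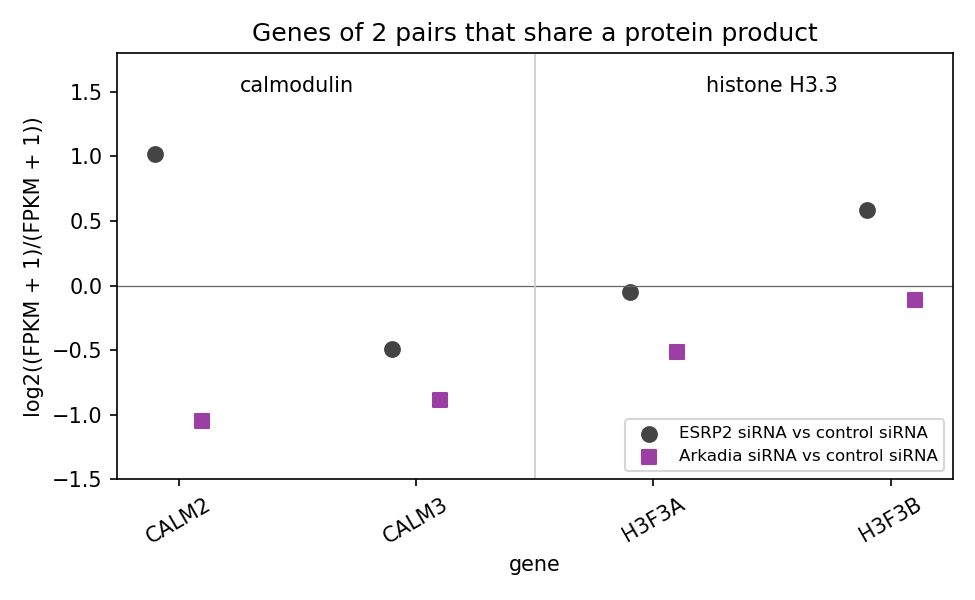
The log2 ratio against control siRNA of each gene in the calmodulin and histone H3.3 pairs, with circles for ESRP2 siRNA and squares for Arkadia siRNA, 1 library per group. With ESRP2 siRNA CALM2 and CALM3 lie on opposite sides of 0, at 1.02 and -0.49, and with Arkadia siRNA both lie below it.

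Genes around calmodulin were counted at 1.5-fold, a size that 19.9% of all genes passed upward and 11.4% downward with ESRP2 siRNA, and 9.81% upward and 11.8% downward with Arkadia siRNA. These shares are before any GC subtraction or scaling. No share of all genes at 1.5-fold is given after them, so list counts under those settings lack a matching background. Of the calmodulin-like proteins CALML3, CALML4, CALML5 and CALML6, only CALML4 was expressed enough to be compared. CALML4 had an FPKM of 5.26 with ESRP2 siRNA and 2.56 with Arkadia siRNA, against 3.23 with control siRNA, and passed 1.5-fold against control in neither. Its level was far under that of CALM2 and CALM3 per length.

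Calmodulin-dependent kinases were listed together with inhibitors and regulatory subunits. With ESRP2 siRNA 2 rose and 3 fell among the 21 of 27 compared, and with Arkadia siRNA 3 rose and 2 fell. Their median log2 ratios were -0.06 and -0.04, beside 0.12 and -0.02 over all genes. The rises with ESRP2 siRNA were CAMK2D, a subunit of CaM kinase II, and CAMK2N1, an inhibitor of that kinase, and the falls were CAMK2N2, a second such inhibitor, CAMK4 and DAPK3, a death-associated protein kinase. CAMK2N2 had 1.16 with ESRP2 siRNA and 2.57 with Arkadia siRNA, against 5.74 with control siRNA, and was lower in both. CAMK1, the most abundant kinase of the list, had 59.9 with ESRP2 siRNA and 88.1 with Arkadia siRNA, against 54.4 with control siRNA.

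DAPK3, with a GC-rich transcript, had 14.2 with ESRP2 siRNA and 37.8 with Arkadia siRNA, against 23.1 with control siRNA, and fell with ESRP2 siRNA and rose with Arkadia siRNA. CAMK2G, another kinase II subunit, had 33.8 and 24.5, against 26.1 with control siRNA, and passed in neither. PHKG2, the catalytic subunit of phosphorylase kinase, of which calmodulin is itself a subunit, had 19.6 and 29.5, against 26.6 with control siRNA, and passed in neither as well. CAMK2D, CAMK2N1, CAMK2N2, CAMK4 and, with Arkadia siRNA, PNCK, which rose, were picked for mention after their values were seen, as were PPP3CA, NFATC4, ADCY1 and ITPR3. After GC subtraction 0 members of this list rose in either comparison. With ESRP2 siRNA 3 fell, but DAPK3 was no longer among them. With Arkadia siRNA 2 fell, the inhibitors CAMK2N1 and CAMK2N2.

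Calcineurin, the calmodulin-activated phosphatase of NFAT factors, had 4 rises and 1 fall among 10 of 13 compared with ESRP2 siRNA, and 0 rises and 1 fall with Arkadia siRNA. The median log2 ratios were 0.26 and -0.22, and the median transcript GC content was 46.1%, against 49.3% over all genes. The rises were the catalytic subunits PPP3CA and PPP3CB, the regulatory EF-hand subunit PPP3R1 and the feedback inhibitor RCAN1, and the fall was the target NFATC4. PPP3CB had an FPKM of 34.7 with ESRP2 siRNA and 15.6 with Arkadia siRNA, against 18.4 with control siRNA, and PPP3R1 had 38.7 and 18.2, against 23.1. Of the 4 rises 0 passed 1.5-fold after GC subtraction, 2 after scaling by the median of ratios and 1 after scaling to the upper quartile. CABIN1, a calcineurin inhibitor, had 21.0 and 20.9, against 27.6 with control siRNA.

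Enzymes, pumps and channels that calmodulin acts on, or that handle calcium, had 2 rises and 3 falls among 17 of 35 with ESRP2 siRNA, and 1 rise and 1 fall with Arkadia siRNA. ATP2B1, a plasma membrane calcium pump that calmodulin activates, had an FPKM of 19.7 with ESRP2 siRNA and 6.79 with Arkadia siRNA, against 11.4 with control siRNA, and so rose with ESRP2 siRNA and fell with Arkadia siRNA. ORAI1, the pore of store-operated calcium entry, rose with ESRP2 siRNA to 39.3, against 22.05 with control siRNA, and had 32.98 with Arkadia siRNA. Its partner STIM1, the calcium sensor of the endoplasmic reticulum, had 15.8 and 17.6, against 13.2. The falls with ESRP2 siRNA were the adenylyl cyclases ADCY1 and ADCY3 and the calcium release channel ITPR3. ADCY3 had 17.98 and 40.8, against 29.95 with control siRNA. After GC subtraction the list had 1 rise and 3 falls with ESRP2 siRNA and 0 of either with Arkadia siRNA. ADCY3 was no longer among the 3 falls, so these were not the same genes as before.

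IQ-motif proteins, which bind calmodulin without calcium, and other binding proteins had 9 rises and 3 falls among 38 of 42 with ESRP2 siRNA, and 3 rises and 3 falls with Arkadia siRNA, with median log2 ratios of 0.12 and -0.07. After GC subtraction 1 rose and 1 fell with ESRP2 siRNA and 2 rose and 0 fell with Arkadia siRNA. Scaling by the median of ratios gave 5 rises and 6 falls with ESRP2 siRNA. MYO6, a myosin that walks to the minus end of actin, had 15.1 with ESRP2 siRNA and 4.30 with Arkadia siRNA, against 7.19 with control siRNA. MYO1C, a membrane-bound myosin, went the other way with 8.77 and 31.8, against 18.2. MARCKSL1, an actin regulator released from membranes by calmodulin, had 139.9 with ESRP2 siRNA and 244 with Arkadia siRNA, against 161 with control siRNA.

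Other EF-hand proteins had 14 rises and 2 falls among the 35 compared with ESRP2 siRNA, which is 40.0% upward, and a median log2 ratio of 0.40. With Arkadia siRNA 5 rose and 4 fell, with a median of 0.00. At 2-fold 4 of them rose and 0 fell with ESRP2 siRNA, and 1 rose and 1 fell with Arkadia siRNA. After GC subtraction 8 rose and 1 fell with ESRP2 siRNA and 3 rose and 3 fell with Arkadia siRNA. Scaling to the upper quartile gave 9 rises and 6 falls with ESRP2 siRNA. MYL12B, a regulatory light chain of myosin, had an FPKM of 532 with ESRP2 siRNA and 195 with Arkadia siRNA, against 194 with control siRNA, and rose in the first comparison. RCN2, a calcium-binding protein of the secretory pathway, had 177 and 62.3, against 114, and EFHA1, the mitochondrial uptake regulator now named MICU2, had 48.3 and 9.78, against 19.6 with control siRNA. MYL6, the essential light chain and the most abundant of the list, had 970 with ESRP2 siRNA and 794 with Arkadia siRNA, against 829 with control siRNA, and CAPNS1, the small calpain subunit, 198 and 229, against 204.

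Of all 122 list genes compared, 0 passed 2-fold with intervals apart from those of control siRNA in either knockdown. Over all genes such changes were found upward in 0.859% and downward in 0.388% with ESRP2 siRNA, and in 0.194% and 0.244% with Arkadia siRNA. Between Arkadia and ESRP2 siRNA 2 of the 122 passed upward and 5 downward, where 1.86% of all genes did upward and 4.45% downward. These 7 were named because they passed. MYO1C and KCNN1, a calcium-activated potassium channel gated through calmodulin, were higher with Arkadia siRNA. MYO6, RCN2, EFHA1, GCA, a penta-EF-hand protein of granules, and VSNL1, a neuronal calcium sensor, were lower, as was CALM2. Levels were low for KCNN1, at 0.42 with ESRP2 siRNA, and VSNL1, at 0.74 with Arkadia siRNA. In this comparison the medians of GC deciles ran from -1.08 in the lowest to 0.80 in the highest. MYO1C and KCNN1 had GC contents of 58.7% and 61.7%, and the 5 lower genes 36.9% to 41.0%. Whether these 7 stay past 2-fold after GC subtraction was not tested. At 1.5-fold, 21.2% of all genes passed upward and 30.8% downward between the knockdowns. With Arkadia siRNA relative to ESRP2 siRNA, 2 of 10 calcineurin and NFAT genes rose and 6 fell. Of 35 EF-hand genes 4 rose and 14 fell, and of 38 in the IQ-motif list 8 rose and 14 fell. The kinase list had 6 rises and 2 falls among 21. Enzymes, pumps and channels had 5 rises and 4 falls among 17, and CALML4 fell. Median GC contents were 53.1% for the kinase list and 56.2% for enzymes, pumps and channels, against 49.3% over all genes. They were 46.1% for calcineurin and NFAT, 47.6% for the IQ-motif list and 51.9% for EF-hand genes. How these counts between the knockdowns depend on GC content or scaling was not tested.

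Among 1947 genes with a mean FPKM of at least 50, those nearest to CALM2 in both log2 ratios against control were PPP4R2, a regulatory subunit of protein phosphatase 4, at a distance of 0.05, ECI2, an enzyme of fatty acid oxidation, at 0.10 and C1orf31, now named COA6 and known from assembly of cytochrome c oxidase, at 0.11. PPP4R2 had an FPKM of 108 with ESRP2 siRNA and 26.5 with Arkadia siRNA, against 54.1 with control siRNA. Nearest to CALM3 were the ribosomal protein gene RPS29 at 0.10, SF3B14, now SF3B6, a subunit of the U2 snRNP, at 0.10 and STRA13, which by its accession is the centromere protein gene CENPX, at 0.13. RPS29 had 2154 and 1490, against 2907 with control siRNA. The measure rests on 3 libraries, and the GC contents were 35.3%, 44.5% and 44.2% for the neighbours of CALM2 and 42.8%, 42.5% and 60.5% for those of CALM3.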

How the data were processed

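RNA of HEK293T cells was measured in 3 libraries, 1 per siRNA. The authors deposited FPKM values with confidence bounds. The submitters' processing notes name hg19, Cuffdiff, Cufflinks 2.1.1, TopHat2 2.0.10 and Bowtie2 2.1.0. What each did, and how libraries were scaled, is not given in the sources used here. The isoform length in nt is another deposited column, per the file headers. From these, log2((FPKM + 1)/(FPKM + 1)) was computed in Python 3.11.15 with pandas 2.3.3 for 11870 of 23284 genes with a mean FPKM of at least 1, status OK and an isoform of 300 nt or more. The computation of calls at 2-fold was run on simulated data with known larger changes and little noise. This checked the computation only and was no test of any call in these libraries. No counts were used. For depth, whole steps (tolerance 0.01) were found in the bounds of 1426 of 1644 low genes, and 1268 genes had the same unit. The depth of each library rests on the most frequent value. It was shared by 113 genes with ESRP2 siRNA, 65 with Arkadia siRNA and 87 with control siRNA. Read numbers are therefore estimates. Transcripts were matched to GENCODE 29 by accession for 95.7% of genes and otherwise by symbol, and 98.9% had a GC content. CALM3 was matched by symbol. The members, lists and rules were chosen with earlier results of these data known. Named genes were, per list, the 4 of highest mean FPKM and those past 2-fold with intervals apart, and the 3 nearest neighbours per member in log2 ratio. Any other gene is said to be named after its values were seen. No protein table was used, so the H3.3 pair stood in; some planned genes are not reported here. Identity of proteins was checked by translating the coding sequences. Alternatives covered pseudocount, filter, scaling, GC content, length and table.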

Additional observations from a re-analysis of the deposited data

How the results depend on the processing

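The directions of CALM2 and CALM3 were the same in all 3 comparisons under the 8 alternatives tried. Not all of these could change a direction. The isoform table could not differ, as each gene has 1 isoform. Pseudocounts of 0.1 and 5 matter little at these FPKM levels. The result therefore rests on the scalings and on the subtractions for GC content and length. CALM2 ranged over log2 ratios of 0.42 to 1.02 with ESRP2 siRNA and -1.16 to -0.58 with Arkadia siRNA against control, and over -2.10 to -0.98 between the knockdowns. CALM3 ranged over -0.68 to -0.26, -1.13 to -0.85 and -0.87 to -0.23. With ESRP2 siRNA, CALM2 dropped under 2-fold after each of the 3 scalings (0.89, 0.85 and 0.83) and after length subtraction (0.99), and under 1.5-fold after GC subtraction (0.42), while CALM3 passed 1.5-fold downward after the scalings (-0.61, -0.66 and -0.68). After GC subtraction CALM2 also dropped under 2-fold between the knockdowns (-0.98) and under 1.5-fold with Arkadia siRNA against control siRNA (-0.58). The isoform table gave the same values as the gene table.

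The counts of genes past 2-fold moved more. With ESRP2 siRNA the 647 rises and 287 falls became 430 and 162 at a mean FPKM of at least 10, 295 and 94 with a pseudocount of 5, 418 and 448 after scaling by the median of ratios, 362 and 522 with the upper quartile as scale, and with GC subtracted 274 and 186, while a pseudocount of 0.1 gave 571 falls. With Arkadia siRNA the 199 rises and 266 falls became 124 and 156 at the stricter FPKM minimum, 78 and 77 with a pseudocount of 5, 349 and 512 with 0.1, and 112 and 174 with GC subtracted. Between the knockdowns the 1056 rises and 1837 falls became 646 and 1116 at that minimum, 475 and 923 with a pseudocount of 5, and 383 and 534 with GC subtracted, while falls no longer outnumbered rises after scaling by the median of ratios (1444 rises and 1370 falls) or to the upper quartile (1461 and 1354). The cause was not tested. No paired analysis was possible because each group has 1 library. Upper-quartile scaling of the lists and median-of-ratios scaling of the pairs that share a protein were chosen after seeing the data. The authors' intervals reached 46.1% to 49.7% of the FPKM to either side for CALM2 and CALM3 and limit what these libraries resolve.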
